A study of Mus musculus with 18 samples.

Results

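The genes described here were 8 mouse genes of TWEAK and NF-kappaB signalling: the ligand Tnfsf12 (TWEAK), its receptor Tnfrsf12a (Fn14), the adaptor Traf2, the Rel family genes Rela, Relb, Nfkb1 and Nfkb2, and the inhibitor gene Nfkbia. Tnfrsf12a was chosen on its measured difference between the 24 h and C groups of these same pools, and the others were named for their place in its pathway, so the values of all members are descriptions and carry no p-value. Members were found as every probeset that the array annotation gives to 1 of these genes. In all, 14 of 45037 probesets were found, which covered 7 of the 8 genes. Nfkb1 had no probeset listed and was not analysed here. Probesets of their own were held by 6 of these 7 genes, among 18193 genes with such a probeset in the whole series, and Tnfsf12 was listed only on probesets that other genes share.

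The samples were gracilis, a thigh muscle of mixed fibre type, from male C57BL/6J mice. Their age is given as 3 to 5 wk, without the time point, and 7 days of acclimation came before the injections. The mRNA abundance was read with Affymetrix MOE430A and MOE430B arrays. All mice received 10 daily intraperitoneal injections and were killed 24 h after the last. The vehicle control (C) group received 10 vehicle injections. The 24 h group received 9 vehicle injections and then 1 of clenbuterol, a beta-adrenergic agonist that enlarges muscle, at 1 mg/kg. The 10 D group received 10 clenbuterol injections at 1 mg/kg. Each group had 3 pools of RNA from 3 mice each, whole cages carried 1 treatment, and mice had been picked for the pools by how far their blood urea nitrogen and weight gain stood from those of C. A level is the signal of a probeset over the array's median signal, so a level of 1 is the signal of the median probeset, and levels of different probesets are not comparable.

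TWEAK is a cytokine of the TNF family that is made as a membrane protein and shed. Its receptor, Fn14, is a small member of the TNF receptor family with no enzymatic activity, which recruits TRAF adaptors such as Traf2 and so activates kinases that free NF-kappaB dimers. In the classical branch, I-kappaB alpha, the product of Nfkbia, is degraded and releases dimers that hold Rela. In the alternative branch, the precursor encoded by Nfkb2 is processed and enters the nucleus with Relb. Fn14 is scarce in resting adult muscle and is known to be induced by denervation, injury and growth factors, and TWEAK is known for causing muscle wasting.

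Sequence before the transcription start was held for 5 of the 8 members, from RefSeq gene models on build GRCm38.p6. The 250 bases before the start of Tnfrsf12a, the gene with the largest difference among the members, and of Nfkbia and the first start of Nfkb2, whose products belong to the pathway and whose own upstream sequences hold matches to the NF-kappaB consensus, are shown. In Tnfrsf12a (chr17:23677450-23677699, minus strand) the capitals mark the GC box GGGCGG on either strand. In Nfkbia (chr12:55492648-55492897, minus strand) and Nfkb2 (chr19:46304487-46304736, plus strand) they mark the NF-kappaB consensus on either strand.
Tnfrsf12a: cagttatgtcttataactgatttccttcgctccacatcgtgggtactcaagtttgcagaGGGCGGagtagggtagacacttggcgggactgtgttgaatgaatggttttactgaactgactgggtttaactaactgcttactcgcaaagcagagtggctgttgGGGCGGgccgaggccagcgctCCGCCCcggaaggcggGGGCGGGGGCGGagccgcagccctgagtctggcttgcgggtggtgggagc
Nfkbia: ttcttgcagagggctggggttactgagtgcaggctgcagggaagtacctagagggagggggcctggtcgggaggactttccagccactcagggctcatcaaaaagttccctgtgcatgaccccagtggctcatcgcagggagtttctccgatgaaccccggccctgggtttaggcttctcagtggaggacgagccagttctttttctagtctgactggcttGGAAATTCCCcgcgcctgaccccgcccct
Nfkb2: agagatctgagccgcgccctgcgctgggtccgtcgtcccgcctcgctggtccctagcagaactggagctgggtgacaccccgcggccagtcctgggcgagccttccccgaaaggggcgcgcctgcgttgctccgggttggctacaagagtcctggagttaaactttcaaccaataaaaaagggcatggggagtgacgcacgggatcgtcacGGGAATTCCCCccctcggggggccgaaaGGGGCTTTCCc
The NF-kappaB consensus was present in 3.9% of the 32851 upstream sequences of the same length in the reference. The Tnfrsf12a sequence held no match to it, and none to the cyclic AMP response element TGACGTCA (1.55% of all), its shorter form TGACG (17.8%) or the AP-1 motif TGANTCA (6.75%). It held 5 matches to the GC box, which 32.7% of all sequences contained. Nfkbia had 1 match to the NF-kappaB consensus, 29 to 20 bases before the start on the minus strand. Nfkb2 had 4 matches that overlapped into a pair of stretches, the nearer of them 11 to 2 bases before the start. The Rela sequence held neither the NF-kappaB consensus nor any of the 3 other motifs apart from the GC box, and Traf2 held TGACG 1 time. These matches describe the letters of these windows only.

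Array medians ranged between 30.8 and 88.4 signal units on MOE430A and between 13.2 and 37.1 on MOE430B. Of 33752 probesets above the 25th percentile of mean level on their array, 154 differed between 24 h and C at an FDR of 10% in the limma fit (0.456% of those tested), 111 of them higher and 43 lower. After quantile normalization the split was 114 higher and 96 lower, and with scaling to the 75th percentile 97 higher and 64 lower. No probeset differed between 10 D and C (0%), where 1540 had an unadjusted p under 0.05, and the unmoderated linear model also gave 0. Between 10 D and 24 h, 17 probesets differed (0.0504%), 5 higher and 12 lower at 10 D, or 18 higher and 22 lower after quantile normalization. Both treated groups were compared with the same C pools, so their differences are not independent of each other. All 14 member probesets passed the filter on low levels. Markers of skeletal muscle fibres were bright in every pool, with a summed level of 1815 to 2766 in C, 1514 to 2062 at 24 h and 1300 to 2279 at 10 D over 10 genes.

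The abundance of the TWEAK receptor mRNA was far higher 24 h after a dose of clenbuterol than in C, and after 10 D its levels lay on both sides of those of C. Tnfrsf12a probeset 1418571_at had levels of 0.718, 0.651 and 0.668 in the C pools, 29.1, 19.7 and 25.9 in the 24 h pools, and 2.09, 0.527 and 2.18 in the 10 D pools. Every 24 h pool was above every other pool, and the 10 D pools lay on both sides of the C pools. On the log2 scale the 24 h mean was 5.18 ± 0.47 (SE, n = 3 pools each) above C, a 36.3-fold difference, and the 10 D mean was 0.98 ± 0.47 above C. The 10 D mean was 4.20 lower than the 24 h mean (a log2 change of -4.20 ± 0.47).

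The other Tnfrsf12a probeset, 1418572_x_at, had levels of 1.15, 0.699 and 1.60 in the C pools, 36.3, 11.9 and 32.6 in the 24 h pools, and 1.81, 0.521 and 1.84 in the 10 D pools. Its suffix means that some of its probes can also bind other transcripts. Again all 24 h pools were above every other pool, and the 10 D and C pools overlapped. The log2 change was 4.47 ± 0.57 at 24 h against C, 0.15 ± 0.57 at 10 D against C and -4.33 ± 0.57 at 10 D against 24 h. Over the 9 pools the 2 probesets had a Pearson r of 0.97 on the log2 scale, and of 0.82 for deviations from the group means (n = 9 pools, which share the arrays).

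**Figure D1:**
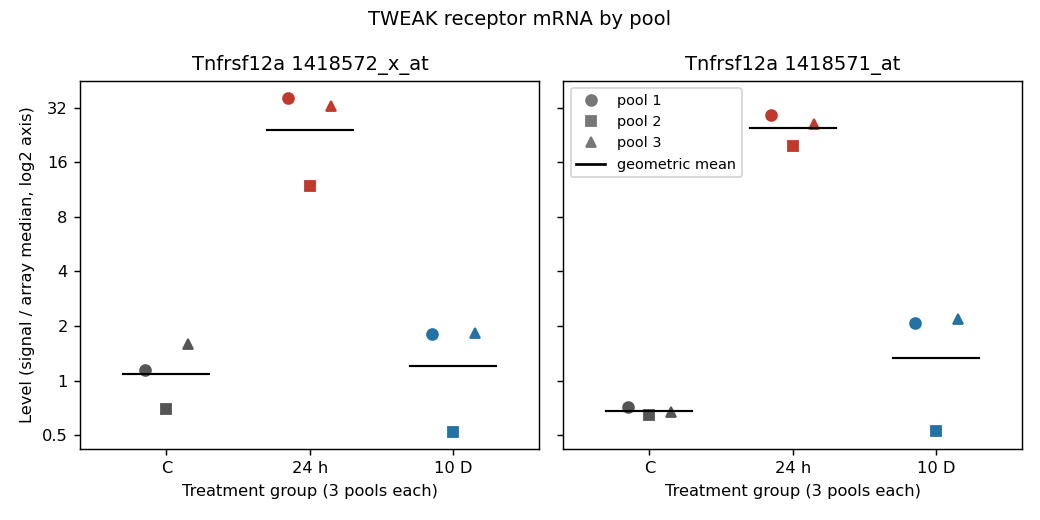
Level of the 2 Tnfrsf12a probesets (signal divided by array median, log2 axis) in the 3 pools of C, 24 h and 10 D, with the geometric mean of each group as a line. The 24 h pools lie between 11.9 and 36.3, above all C and 10 D pools, and pool 2 is the lowest of both treated groups on both probesets.

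In both treated groups the lowest level was that of pool 2. The arrays of these pools had the lowest MOE430A medians of their groups, 35.7 signal units at 24 h and 33.6 at 10 D, while the lowest median of all was 30.8 in C pool 1. In signals before any scaling, 1418572_x_at read 35.3, 45.4 and 68.6 units in the C pools, 2254, 425 and 1666 in the 24 h pools, and 160, 17.5 and 85.9 in the 10 D pools. The 24 h pools were thus above the C pools with and without scaling. Without pool 2 of both treated groups, an alternative added after the data were seen, the log2 change of 1418572_x_at was 4.98 at 24 h against C and 0.75 at 10 D against C. That of 1418571_at was 5.34 at 24 h against C and 1.65 at 10 D against C. All 18 Tnfrsf12a levels exceeded 0.294, the filter level of MOE430A. In whole muscle, a change in the number of cells of a type and a change of mRNA per cell cannot be told apart.

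The ligand was measured only by probesets that also list the Tnfsf12 and Tnfsf13 read-through locus, Tnfsfm13, so their signal is not assigned to Tnfsf12 alone. The probeset of Tnfsfm13 and Tnfsf12, 1452440_at, had levels of 1.81, 2.64 and 2.76 in the C pools, 2.37, 2.65 and 1.92 in the 24 h pools, and 2.42, 3.67 and 3.35 in the 10 D pools. The 3 groups overlapped, at -0.04 ± 0.26 (log2 change) for 24 h against C and 0.39 ± 0.26 for 10 D against C. The probeset that lists Tnfsf13 (APRIL, a B cell factor) as well, 1418345_at, had levels of 0.808, 0.818 and 0.995 in the C pools, 0.775, 1.03 and 0.540 in the 24 h pools, and 0.724, 0.771 and 0.607 in the 10 D pools. Its 10 D pools all lay below the C pools, by a log2 change of -0.32 ± 0.31, and its 24 h pools overlapped with C. The direction at 10 D was therefore opposite on the 2 ligand probesets.

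Traf2, the adaptor and ubiquitin ligase scaffold recruited by Fn14 and by the TNF receptors, was measured by 1451233_at, with levels of 2.50, 1.69 and 1.61 in the C pools, 2.54, 2.04 and 2.76 in the 24 h pools, and 1.75, 1.34 and 1.87 in the 10 D pools. The 24 h and the 10 D pools each overlapped with C. The log2 change was 0.36 ± 0.26 at 24 h against C and -0.21 ± 0.26 at 10 D against C. All 10 D pools lay below all 24 h pools, with a log2 change of -0.57 ± 0.26. Of all 15184 genes tested by their brightest probeset, 876 had all 10 D pools below all 24 h pools.

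Of the Rel family, Rela, which encodes the main transactivating subunit of the classical branch, had higher levels in all 24 h pools than in any C pool. Its probeset 1419536_a_at read 5.27, 4.17 and 4.69 in the C pools, 7.31, 5.82 and 5.76 in the 24 h pools, and 5.02, 4.80 and 4.97 in the 10 D pools. The log2 change was 0.42 ± 0.20 at 24 h against C and 0.07 ± 0.20 at 10 D against C, and the 10 D pools all lay below the 24 h pools. The gap between the lowest 24 h pool and the highest C pool was smaller than the range of the C pools.

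Nfkb2, which encodes the precursor of the alternative branch, had 2 probesets. On 1425902_a_at the levels were 0.422, 0.491 and 0.390 in the C pools, 1.25, 0.619 and 0.585 in the 24 h pools, and 0.936, 0.473 and 0.303 in the 10 D pools. All 24 h pools were above the C pools, most of the difference lay in pool 1, and the log2 change was 0.83 ± 0.47. On 1429128_x_at the levels were 0.260, 0.528 and 0.893 in the C pools, 0.209, 0.936 and 0.967 in the 24 h pools, and 0.492, 1.29 and 0.766 in the 10 D pools, so the groups overlapped. Its log2 change of 0.21 ± 0.67 at 24 h had a wide error, and its lowest C and 24 h pools were under the filter level. The 2 Nfkb2 probesets had their highest 24 h level in different pools.

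Relb, the partner of the processed Nfkb2 product, was measured by 1417856_at, with levels of 0.568, 0.955 and 0.449 in the C pools, 0.551, 0.824 and 0.793 in the 24 h pools, and 0.676, 0.774 and 0.944 in the 10 D pools. The C pools spanned the levels of all treated pools. The log2 change was 0.19 ± 0.35 at 24 h and 0.34 ± 0.35 at 10 D, both against C.

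Nfkbia, the inhibitor that NF-kappaB itself induces, had 5 probesets, 4 on MOE430A and 1 on MOE430B. On the MOE430B probeset, 1438157_s_at, levels were 16.4, 15.0 and 17.5 in the C pools, 21.4, 29.1 and 16.5 in the 24 h pools, and 21.7, 26.4 and 25.6 in the 10 D pools. All 10 D pools were above the C pools (log2 change 0.59 ± 0.24), and the 24 h pools overlapped with C (0.42 ± 0.24). The brightest MOE430A probeset, 1420088_at, read 24.8, 30.6 and 31.9 in the C pools, 30.4, 40.1 and 23.5 in the 24 h pools, and 28.9, 67.7 and 37.1 in the 10 D pools. Its log2 change at 10 D, 0.53 ± 0.32, rested on pool 2, and it fell to 0.18 without that pool. On 1448306_at the levels were 5.17, 6.29 and 6.36 in the C pools, 5.64, 4.43 and 3.96 in the 24 h pools, and 6.78, 6.20 and 8.09 in the 10 D pools. Its 10 D pools all lay above its 24 h pools, with a log2 change of 0.59 ± 0.22.

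The 5 Nfkbia probesets did not share a direction at 24 h, where the log2 changes against C lay between -0.35 ± 0.22 on 1448306_at and 0.42 ± 0.24 on 1438157_s_at. At 10 D all 5 were positive, at 0.53, 0.59, 0.14, 0.24 and 0.18 on 1420088_at, 1438157_s_at, 1449731_s_at, 1448306_at and 1420089_at. They measure the same gene in the same pools and are not 5 independent observations. On 1438157_s_at, 1420088_at and 1449731_s_at the highest 24 h level was in pool 2, the pool with the lowest 24 h level of Tnfrsf12a.

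**Figure D2:**
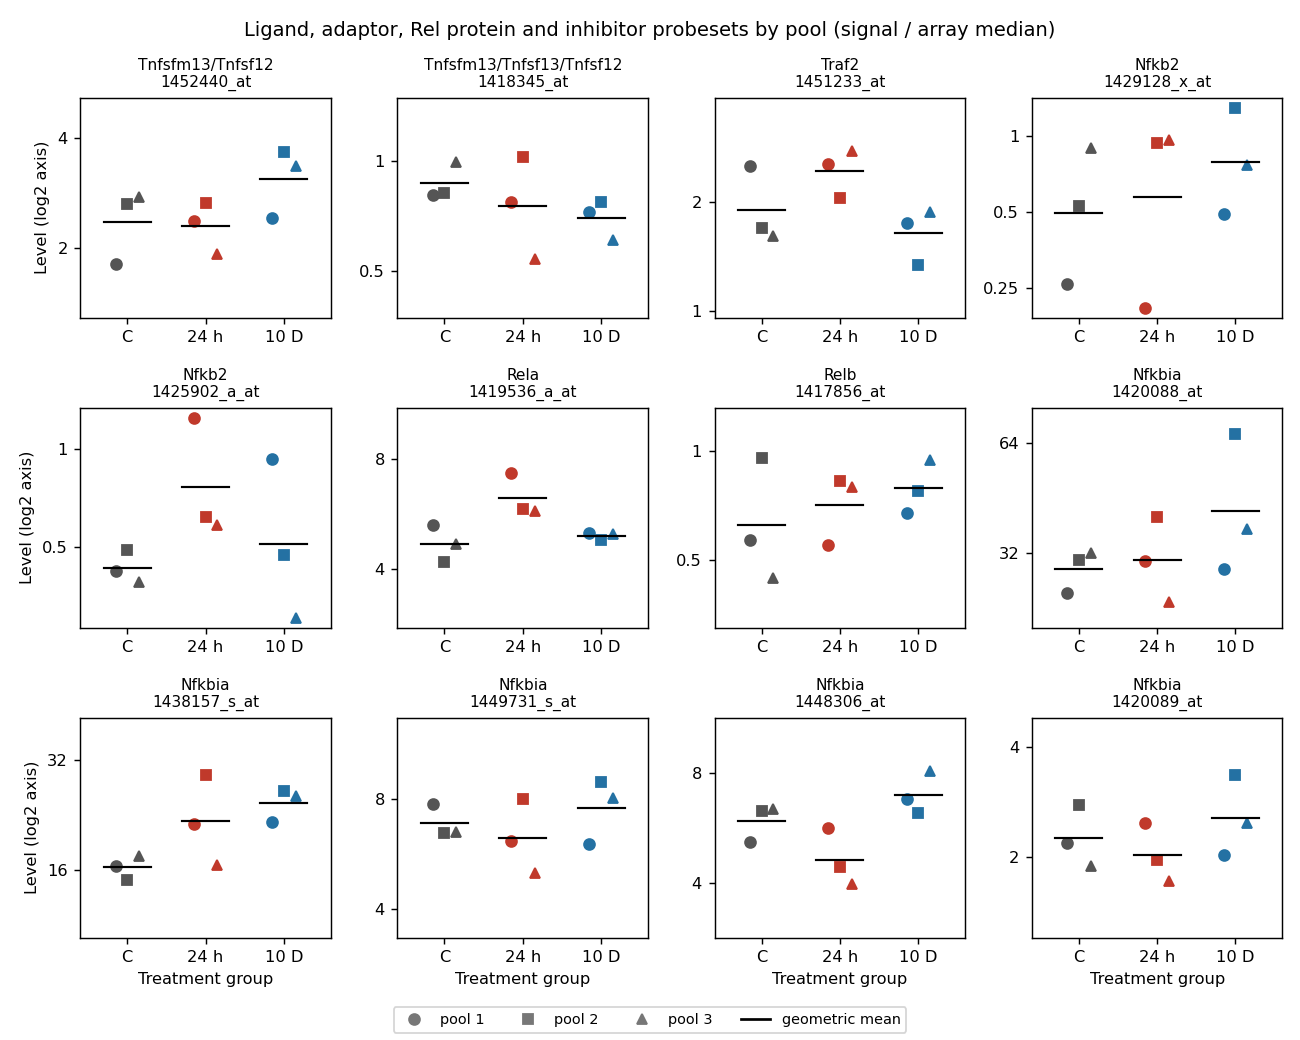
Level (signal divided by array median, log2 axis) of the 12 member probesets other than those of Tnfrsf12a in the 3 pools of C, 24 h and 10 D, with geometric means as lines and a separate scale in each panel. Only Rela 1419536_a_at and Nfkb2 1425902_a_at have all 24 h pools above all C pools.

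Apart from Tnfrsf12a, log2 changes of the member probesets lay between -0.35 and 0.83 at 24 h against C, with SEs of 0.20 to 0.67, and between -0.32 and 0.66 at 10 D against C. Their median over 12 probesets was 0.13 at 24 h and 0.24 at 10 D, beside 0.02 and 0.01 over all probesets tested. Of these 12, 2 had all 24 h pools above all C pools and 0 had all below, where 9.6% and 7.23% of all probesets tested did. At 10 D, 1 of 12 had all pools above C and 1 all below, beside 5.76% and 4.52% of all probesets. Over so few probesets these counts are close to the background. At 10 D against 24 h, 1 of 12 had all pools above and 2 had all below. Of all 15184 genes tested by their brightest probeset, 669 and 876 did. These counts too rest on few probesets. The 2 Tnfrsf12a probesets were the members past the 10% FDR threshold, at 24 h against C and at 10 D against 24 h, and nothing is read from that count because the gene was selected on it.

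**Figure D3:**
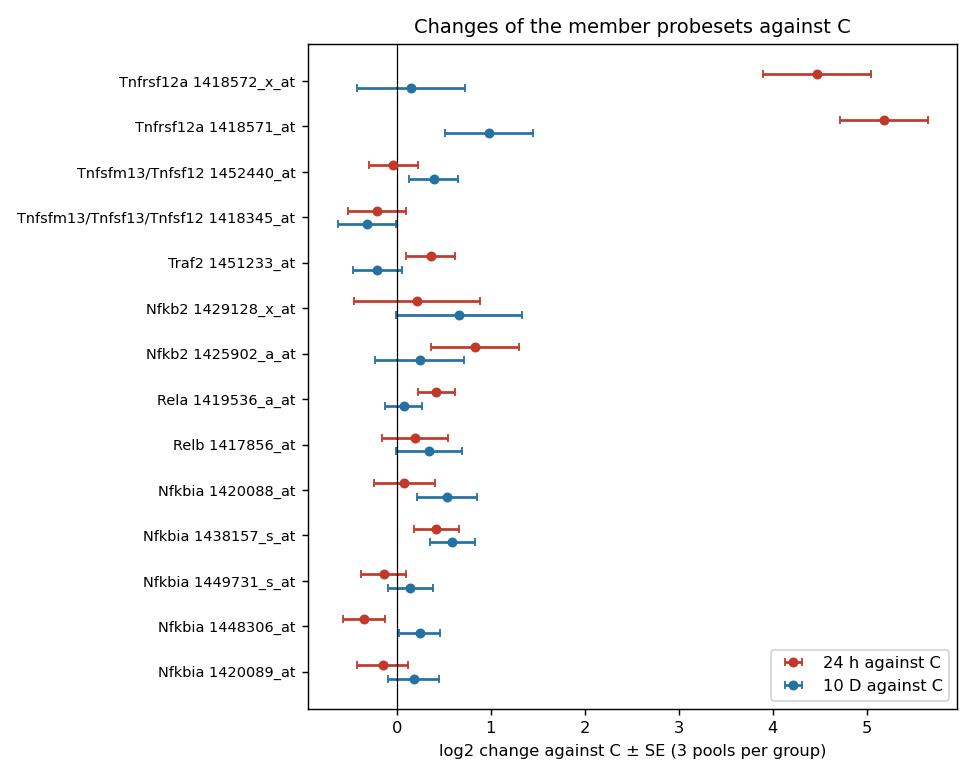
log2 change of the 14 member probesets against C at 24 h and at 10 D, with bars of 1 SE from the limma fit (3 pools per group). The 2 Tnfrsf12a probesets lie at 4.47 and 5.18 at 24 h, and all others lie between -0.35 and 0.83.

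The rest of the pathway was described with 8 lists, which held 136 genes besides the members, of which 105 were tested by their brightest probeset. None passed the 10% FDR in the limma fit at 24 h against C (0 of 105, beside 0.672% of all 15184 genes tested) or at 10 D against C (0 of 105, beside 0%). At an unadjusted p under 0.05, 12 genes differed at 24 h, 6 higher and 6 lower, beside 9.55% of all genes, and 2 differed at 10 D, both lower, beside 4.45%. The unmoderated linear model also called 0 at both times. The median log2 change over the 105 genes was 0.00 at 24 h and 0.00 at 10 D, beside 0.04 and 0.03 over all genes. Without pool 2 of both treated groups, an alternative chosen after the data were seen, 4 genes were called at 24 h. These were Lcn2, Eda2r, Gadd45b and Tnfaip2. Over all probesets tested, 599 were called at 24 h in that alternative, beside 154 with all pools kept. Over the 19 alternatives, Lcn2 was called at 24 h in 7, Eda2r in 3, and Gadd45b and Tnfaip2 in this 1 only. Of the listed genes, 24 were too dim to be tested, Rel, Bcl3, Nfkbie, Ikbke, Il6, Ccl2 and Cxcl10 among them, and 7, such as Traf3, Ripk1 and Chuk, were not analysed here.

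Among the other TNF receptors, 0 of 19 tested passed the threshold. At 24 h, 2 were higher and 1 lower at an unadjusted p under 0.05, beside 9.55% of all genes. Eda2r, the ectodysplasin A2 receptor, had levels of 2.63, 1.75 and 2.73 in the C pools, 5.96, 3.95 and 5.72 in the 24 h pools, and 4.60, 1.97 and 3.52 in the 10 D pools. All its 24 h pools were above C, with a log2 change of 1.14 ± 0.33 and an adjusted p of 0.27. Tnfrsf1a, the main receptor for TNF, had a log2 change of 0.53 ± 0.20 at 24 h (adjusted p = 0.48), with 13.6, 12.2 and 11.3 at 24 h against 9.41, 7.15 and 9.17 in C. Tnfrsf19 (TROY) had all pools of both treated groups below C, at a log2 change of -0.85 ± 0.30 for 24 h (adjusted p = 0.43) and -0.82 ± 0.30 for 10 D (adjusted p = 1). Its 3 tested probesets did not all share that direction, with log2 changes of -1.13 to 0.24 at 24 h. Tnfrsf8 (CD30) had a log2 change of 0.56 ± 0.32 at 24 h (adjusted p = 0.69).

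Of 10 TNF family ligands tested, 0 differed at an unadjusted p under 0.05 at either time. Of all genes, 9.55% did at 24 h and 4.45% at 10 D. Tnf itself had a log2 change of 0.60 ± 0.60 at 24 h, and Tnfsf10 (TRAIL) one of -0.28 ± 0.25, with 0.14 on its other tested probeset. Tnfsf13b (BAFF), a B cell survival factor, had 2.51, 2.55 and 2.95 at 24 h against 2.10, 2.06 and 2.32 in C, without overlap, at a log2 change of 0.30 ± 0.22 (adjusted p = 0.77), and its other tested probeset had one of -0.26. Ltb, which encodes lymphotoxin beta, had the lowest log2 change, -2.30 ± 1.18, on levels as low as 0.0364 at 24 h and 0.0864 in C.

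Of 13 adaptors and ubiquitin ligases tested, 1 was higher and 2 lower at 24 h (unadjusted p under 0.05, beside 9.55% of all genes). Traf6, an adaptor of the interleukin and Toll receptors, had levels of 1.82, 1.76 and 2.06 in the C pools, 1.06, 0.523 and 0.511 in the 24 h pools, and 0.755, 0.550 and 1.26 in the 10 D pools. Both treated groups lay wholly below C, at a log2 change of -1.52 ± 0.44 for 24 h (adjusted p = 0.27) and -1.22 ± 0.44 for 10 D (adjusted p = 1). Its 4 tested probesets ranged between -1.52 and 0.30 at 24 h. Ube2n, the E2 enzyme that works with Traf6, had a log2 change of -0.71 ± 0.23 at 24 h (adjusted p = 0.36), with 4.03, 3.32 and 2.91 at 24 h against 5.10, 6.92 and 4.86 in C. Traf4 had a log2 change of 1.95 ± 0.88 at 24 h with overlapping pools, and Traf5 one of -0.54 ± 0.29 at 10 D. The Traf4 levels were 0.903, 0.434 and 2.37 at 24 h against 0.367, 0.505 and 0.0864 in C. The lowest of these C levels was under the filter level of 0.294.

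The 14 kinases and cofactors of NF-kappaB activation tested gave 0 genes at an unadjusted p under 0.05 at either time. The share over all genes was 9.55% at 24 h and 4.45% at 10 D. The log2 changes of these 14 lay between -0.28 and 0.47 at 24 h and between -0.08 and 0.36 at 10 D. The 4 with the smallest F test p were Skp1, a subunit of the ubiquitin ligase that marks I-kappaB, Tab2, Map3k3 and Csnk2a1, and the 24 h pools of each overlapped with C.

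Of the other Rel and I-kappaB genes, 4 were tested and 0 had an unadjusted p under 0.05 at either time. Among all genes the share was 9.55% at 24 h and 4.45% at 10 D. Nkrf, a repressor of NF-kappaB target promoters, had 1.36, 1.79 and 1.97 at 24 h against 1.02, 1.26 and 1.14 in C, and 2.44, 1.34 and 1.34 at 10 D against the same C pools. Its log2 changes were 0.57 ± 0.33 and 0.53 ± 0.33 (adjusted p = 0.68 and 1), while its other tested probeset went the other way at both times, at -0.21 and -0.37. Nfkbid, Nfkbiz and Nfkbib, which encode atypical and classical I-kappaB proteins, had log2 changes of -0.33 ± 0.37, -0.56 ± 0.39 and -0.23 ± 0.51 at 24 h against C. Of 12 genes that restrain NF-kappaB, 1 was higher and 0 lower at 24 h (unadjusted p under 0.05, beside 9.55% of all genes). Cactin had a log2 change of 0.64 ± 0.28 with overlapping pools (adjusted p = 0.57), and the deubiquitinase gene Cyld had 9.50, 8.27 and 9.93 at 24 h against 5.66, 7.06 and 8.05 in C (log2 change 0.43 ± 0.21, adjusted p = 0.62). Tax1bp1 had a log2 change of 0.46 ± 0.27 and Itch one of 0.86 ± 0.45, with a level of 12.0 in pool 3 of 24 h. Their other probesets did not share that direction, since the 24 h log2 changes lay between -0.98 and 0.46 over the 3 tested for Tax1bp1 and between -0.82 and 0.86 over the 4 tested for Itch.

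Of 24 known target genes of NF-kappaB tested, 2 were higher and 2 lower at 24 h (unadjusted p under 0.05, beside 9.55% of all genes). Lcn2, which encodes lipocalin 2, a secreted iron-siderophore binding protein, had levels of 0.666, 0.205 and 0.738 in the C pools, 16.0, 3.77 and 14.8 in the 24 h pools, and 0.903, 0.0804 and 0.848 in the 10 D pools. All its 24 h pools were above all others, with pool 2 again lowest in both treated groups. Its log2 change of 4.37 ± 0.94 at 24 h had an adjusted p of 0.12 in the limma fit, and between 0.0021 and 0.43 over the alternatives. With 0.25 added to each level before the logarithm, its log2 change was 3.74. Gadd45b, a stress gene, had 2.67, 3.87 and 1.82 at 24 h against 4.75, 6.03 and 6.86 in C, with a log2 change of -1.13 ± 0.28 (adjusted p = 0.21). Tnfaip2 had a log2 change of -0.83 ± 0.37 at 24 h (adjusted p = 0.58), and Junb one of 0.22 ± 0.34 at 24 h and -0.63 ± 0.34 at 10 D. The median of the list was 0.16 at 24 h and 0.01 at 10 D.

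Of 10 genes known to respond to TWEAK in muscle, none passed the threshold on its brightest probeset. Fbxo32, the muscle atrophy ubiquitin ligase atrogin-1, had 9.61, 8.96 and 5.51 at 24 h against 16.0, 17.5 and 11.2 in C, with a log2 change of -0.91 ± 0.39 (adjusted p = 0.55), while its 3 probesets ranged between -0.91 and 0.42. Klf15 had a log2 change of -0.87 ± 0.46, Timp1 one of 0.87 ± 0.49 and Myod1 one of -0.33 ± 0.52 at 24 h, with 0.47 on the other Myod1 probeset. Ppargc1a, the coactivator of mitochondrial genes, was called at 24 h on 2 probesets that were not its brightest. On 1434100_x_at it had 5.90, 5.59 and 7.56 at 24 h against 1.67, 2.44 and 2.64 in C, a log2 change of 1.51 ± 0.26 (adjusted p = 0.068), and on 1434099_at the log2 change was 1.45 ± 0.28 (adjusted p = 0.086). Over the 19 alternatives the adjusted p of 1434100_x_at lay between 0.032 and 0.29, under 0.1 in 10 of them, and that of 1434099_at between 0.06 and 0.35, under 0.1 in 8. Leaving out any C or 24 h pool, or pool 3 of 10 D, took 1434100_x_at past 0.1, and leaving out any C pool, 24 h pool 2 or 3, or 10 D pool 3 did so for 1434099_at. Its brightest probeset had a log2 change of -0.33 at 24 h.

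**Figure D4:**
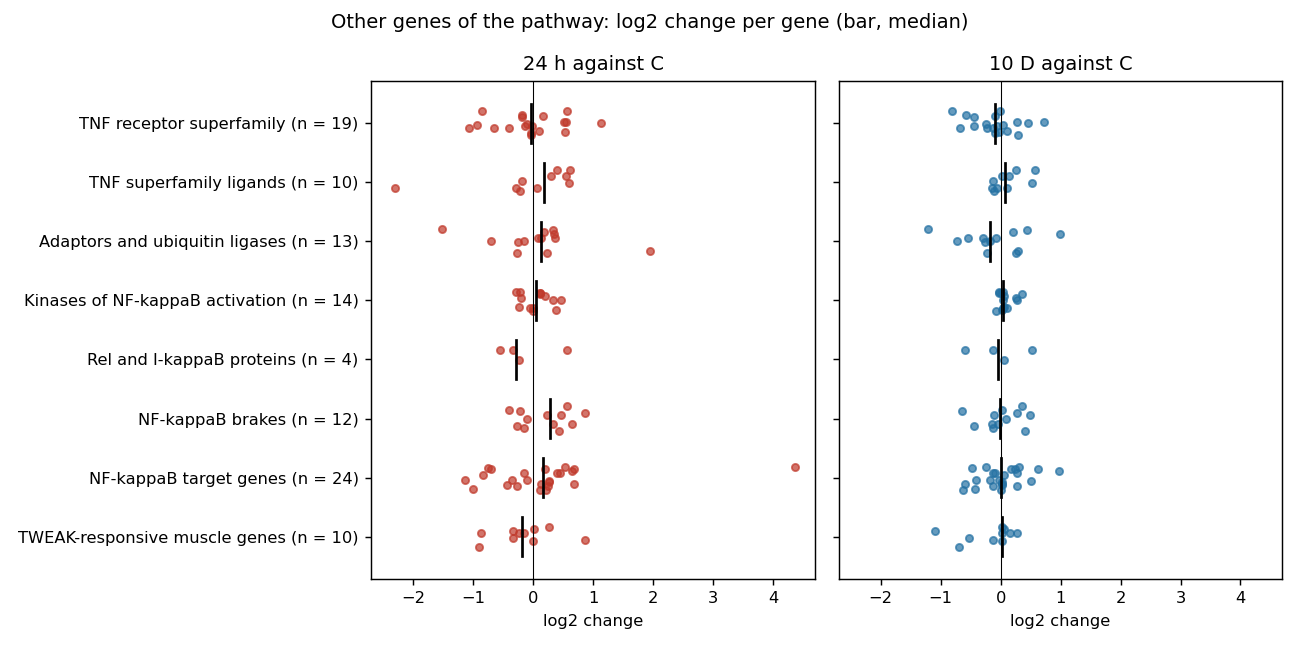
log2 change against C at 24 h (left) and at 10 D (right) of each tested gene of the 8 pathway lists, by brightest probeset, with a bar at the median of each list. Medians lie between -0.28 and 0.28 at 24 h and between -0.18 and 0.06 at 10 D, and Lcn2 lies at 4.37 at 24 h.

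Markers of the other cells that a muscle holds were read in the same pools. Over 8 satellite cell and myoblast markers the summed level was 15.4 to 18.2 in the C pools, 20.6 to 29.0 in the 24 h pools and 12.1 to 16.0 in the 10 D pools, while the median log2 change of the list was -0.04 at 24 h and -0.06 at 10 D. In that list 1 of 8 genes was called at 24 h, beside 0.672% of all genes. It was Myog (myogenin, a regulator of myoblast differentiation), which rose to 9.11, 10.1 and 6.53 at 24 h, against 2.31, 1.54 and 2.36 in C, with a log2 change of 2.06 ± 0.34 (limma adjusted p = 0.053). Its adjusted p lay between 0.022 and 0.25 over the alternatives, and each 24 h or C pool, and pool 3 of 10 D, when left out took it past 0.1. Without Myog the sum over the 7 other markers was 13.9 to 15.9 in the C pools, 10.5 to 19.9 in the 24 h pools and 9.11 to 14.4 in the 10 D pools, so the groups overlapped. Myf5 and Sdc4, the dimmest and brightest markers of the list, had log2 changes of 1.04 ± 0.48 and -0.12 ± 0.39 at 24 h, with 0.27 on the other Sdc4 probeset.

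Over 8 neutrophil markers the summed level was 5.45 to 6.94 in the C pools, 7.33 to 11.9 in the 24 h pools and 6.93 to 9.43 in the 10 D pools. The called gene was S100a8, a calcium-binding protein of myeloid cells, which rose to 2.78, 2.07 and 2.05 at 24 h, against 0.205, 0.0354 and 0.196 in C (log2 change 4.34 ± 0.68, limma adjusted p = 0.044, range over the alternatives 0.016 to 0.2). All 3 C levels were under the filter level of 0.294, so S100a8 passed the filter through the treated pools. Its adjusted p and the size of its change rest on these low C levels and are uncertain. The range covers 18 alternatives, of which 12 called S100a8, because the 50th percentile filter left it out. With 0.25 added to each level before the logarithm, its log2 change was 2.71. At 10 D it had 1.36, 1.47 and 0.468, with a log2 change of 3.12 ± 0.68 and an adjusted p of 0.74. Its partner S100a9 had 0.538, 0.504 and 0.689 at 24 h against 0.844, 0.445 and 0.0397 in C, Ngp, the brightest marker of the list, had a log2 change of -0.03 ± 0.29 at 24 h, and Cxcr2 and Camp were below the filter level. Leaving out any 1 of the 24 h pools, or C pool 1 or 3, took the adjusted p of S100a8 past 0.1. Without S100a8 the sum over the 7 other markers was 5.25 to 6.90 in the C pools, 4.56 to 9.80 in the 24 h pools and 5.68 to 7.97 in the 10 D pools, so the groups overlapped.

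Over 10 lymphocyte markers the summed level was 14.6 to 16.4 in the C pools, 9.44 to 10.9 in the 24 h pools and 14.5 to 20.6 in the 10 D pools. Of 7 tested, 0 were called at 24 h, beside 0.672% of all genes. At an unadjusted p under 0.05, 4 of the 7 were lower at 24 h, beside 535 of all 15184 genes. The summed levels of macrophage markers were 30.0 to 43.6 at 24 h and 30.6 to 35.3 in C, of endothelial markers 34.1 to 41.6 and 28.7 to 34.2, and of fibroblast and matrix markers 129 to 227 and 163 to 289. Those of adipocyte markers were 98.3 to 149 at 24 h and 101 to 148 in C, of smooth muscle and pericyte markers 96.2 to 111 and 98.0 to 108, of Schwann cell markers 23.9 to 36.1 and 25.4 to 34.5, and of keratinocyte markers 1.84 to 3.01 and 3.07 to 16.6. In these 7 other lists 0 genes were called. Of the markers bright enough to be tested, those lowest and highest in level were Cd3g and Ighm for lymphocytes, Ccr2 and Csf1r for macrophages, Tie1 and Kdr for endothelium, Pdgfra and Col3a1 for fibroblasts, Lep and Fabp4 for adipocytes, Cnn1 and Rgs5 for smooth muscle, S100b and Pmp22 for Schwann cells, Krt14 and Krt10 for keratinocytes, and Myh7 and Ckm for muscle fibres. On their brightest probesets, the log2 changes of these markers at 24 h against C lay between -1.64 for Krt10 and 0.15 for Kdr and Fabp4. The smallest limma adjusted p among them was 0.27, for Krt10. Other tested markers of the same lists went up to 0.85, for Cd68, and down to -1.18, for Ms4a1. Over all tested markers of these lists the smallest limma adjusted p was 0.11, for a lymphocyte marker. The part of these cell types in the level of Tnfrsf12a was not tested.

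The probesets most like Tnfrsf12a were sought by Pearson r of log2 level with 1418572_x_at over the 9 pools, which share arrays and in which the 24 h pools stand apart, so r is a description. The 10 highest, with r of 0.96 to 0.98, were Timm10, Lcn2, Slc25a5 on 2 probesets, Klhl40, Ankrd27, Eny2, Tollip, Cdkn1a and Ppp1r15a. Timm10, a chaperone of mitochondrial protein import, had levels of 10.0, 8.49 and 11.0 in the C pools, 29.4, 17.2 and 25.8 in the 24 h pools, and 11.4, 6.68 and 9.21 in the 10 D pools. Cdkn1a, the cyclin-dependent kinase inhibitor that halts the cell cycle, had 19.4, 7.38 and 9.02 at 24 h, against 0.347, 0.277 and 0.773 in C. The log2 changes at 24 h against C in this set ranged between 0.46 for Ankrd27, an exchange factor of vesicle traffic, and 4.69 for Cdkn1a.

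These 10 probesets were picked by an r that already holds the deviations from the group means. Likeness in those deviations, in pool 2 or with the other Tnfrsf12a probeset thus follows in part from the choice. The share over all probesets was not computed. For the deviations, r was 0.98 for Lcn2, 0.95 for Timm10 and 0.93 for Tollip, an adaptor that restrains Toll receptor signalling. It was 0.66 for Klhl40, a muscle protein that stabilises thin filaments. In 9 of these 10 probesets, all but that of Eny2, pool 2 was the lowest of both treated groups, as it was for Tnfrsf12a. Among them was Ppp1r15a, a stress-induced phosphatase subunit. With the other Tnfrsf12a probeset, the r of these 10 lay between 0.92 and 0.98. The 5 most opposite were Psd3, Cadm1, Tef, Phtf2 and Klf12, with r of -0.97 to -0.96. Klf12, a transcriptional repressor, had 0.158, 0.165 and 0.149 at 24 h, against 0.854, 0.637 and 0.822 in C. Its 24 h levels were all under the filter level of 0.294, so its r and the size of its difference are uncertain. Tef, a clock-controlled transcription factor, had 19.4, 21.6 and 21.8 at 24 h against 28.6, 29.7 and 28.5 in C. Of the members, Rela 1419536_a_at had an r of 0.87 with Tnfrsf12a, Traf2 one of 0.76 and Nfkb2 1425902_a_at one of 0.58. The other Nfkb2 probeset, 1429128_x_at, had an r of -0.19 and Relb one of -0.11. The ligand probesets 1452440_at and 1418345_at had -0.45 and -0.22, and the 5 Nfkbia probesets lay between -0.62 and 0.08.

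**Figure D5:**
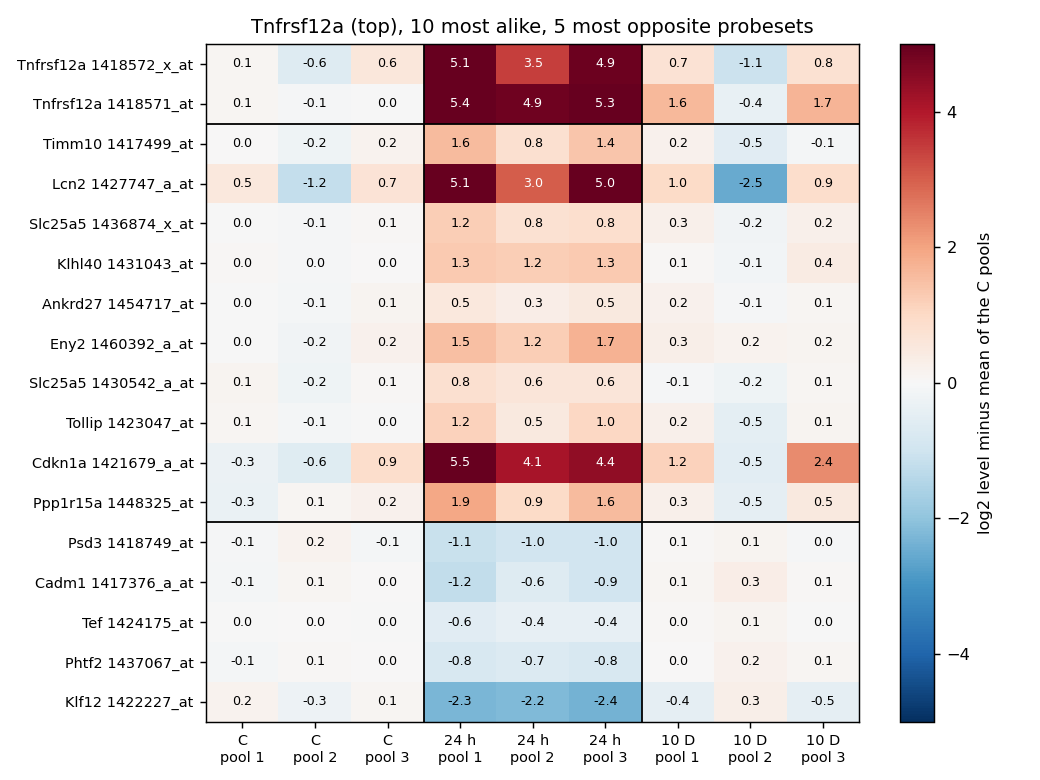
log2 level minus the mean of the C pools for the 2 Tnfrsf12a probesets, the 10 most alike and the 5 most opposite probesets (rows) in each of the 9 pools (columns), with red for higher and blue for lower than C. Tnfrsf12a, Lcn2 and Cdkn1a are the darkest at 24 h, and pool 2 is the lowest 10 D pool in both Tnfrsf12a rows.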

How the data were processed

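RNA of 9 pools, 3 each of C, 24 h and 10 D, was hybridized to MOE430A and MOE430B arrays, 18 in all. The authors deposited signal intensities per probeset from MAS 5.0, unscaled and not log transformed, and left their own division by the chip median and logarithm to a later step. Settings of MAS 5.0 and a genome build are not given in the sources used here. Detection calls were not used here. Each signal was divided by its array median, 18 zero signals were set to the floor of that chip (its lowest scaled value above 0, divided by 2), and log2 was taken. Probesets under the 25th percentile of mean log2 level of their chip were left out (0.294 on MOE430A, 0.346 on MOE430B). A linear model of the 3 groups, with 6 residual degrees of freedom, was fitted in limma 3.58.1 (R 4.3.3) with an intensity trend, all p-values being two-sided and Benjamini-Hochberg adjusted over the 33752 probesets of both chips, with 10% FDR as threshold. SEs come from this fit. P-values measure the spread between pools of 3 mice, and 3 pools per group limit the precision.

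Platform annotation, with symbols updated by gene identifier, gave 1 symbol to 34945 probesets, several to 932 and none to 9160. The 100 probesets on both chips were read from MOE430A. A gene of the 8 pathway and 11 marker lists was tested by its brightest tested probeset. Members and lists were chosen with earlier results of these data known. Named were every member probeset, the 4 genes of each pathway list with the smallest F test p and every called gene. Also named were the tested markers lowest and highest in level in each marker list, and the 10 most alike and 5 most opposite probesets. Ppargc1a was named after its values were seen. Motifs were searched on both strands of the 250 bases before each RefSeq transcription start. Alternatives were quantile and 75th percentile scaling, no filter and a 50th percentile filter, no intensity trend, an unmoderated linear model, an offset of 0.25, a fit of only the groups compared, a replicate block, each pool left out and, chosen after seeing the data, pool 2 of both treated groups left out.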

Additional observations from a re-analysis of the deposited data

How the results depend on the processing

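Tnfrsf12a 1418572_x_at kept its direction at 24 h against C under all 14 alternatives run for it, at log2 changes of 4.15 to 4.98 with 1 pool left out and 4.18 to 4.98 otherwise. At 10 D against C its log2 change ranged between -0.17 and 0.75 with 1 pool left out, so its sign depended on single pools. That of 1418571_at at 10 D against C was positive under all 14 alternatives, at 0.63 to 1.65. The 2 probesets thus differed on this point. The 24 h count of 154 called probesets was 52 without the intensity trend, 100 in the unmoderated linear model, 345 with only 2 groups in the fit, 599 without pool 2 of both treated groups, and 24 to 432 with 1 pool left out (24 without C pool 1, C pool 2 or 24 h pool 3, and 432 without 10 D pool 2). The 10 D count of 0 was 5 without both treated pools numbered 2 and 0 to 1 with 1 pool left out. The count of 17 at 10 D against 24 h was 40 after quantile normalization, 33 with 75th percentile scaling, 5 without the intensity trend, 1 with only 2 groups, 110 without both treated pools numbered 2, and 1 to 76 with 1 pool left out. The 24 h count of pathway genes, 0, was 1 with 75th percentile scaling, 1 with the 50th percentile filter, 1 with the offset, 1 with only 2 groups, 1 with any probeset of a gene, 4 without both treated pools numbered 2, and 0 to 2 with 1 pool left out. That at 10 D was 0 throughout. The causes were not tested.

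With the replicate number as a block, 209 probesets were called at 24 h, 3 at 10 D and 17 at 10 D against 24 h, and 2 pathway genes, Lcn2 and Eda2r, at 24 h. Pools were made at random within a treatment, and the labels give no pairing of pools across groups. Deviations of same-numbered pools from their group means correlated between C and either treated group at -0.07 to 0.05, but between 10 D and 24 h at 0.39, 0.56 and 0.1 on MOE430A and at 0.11, 0.16 and 0.01 on MOE430B for pools 1, 2 and 3. Of these 6 pools, 5 on MOE430A and 4 on MOE430B correlated best with the pool of their own number. These best matches are not independent of each other, and no test was run on them. Treated pools of 1 number thus deviated together in part, mostly pools 1 and 2 on MOE430A. Of 24 changes of the other members, 14 kept their sign under all alternatives.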
